A study of Solanum lycopersicum with 3 samples.

Results

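DNA binding data for the heat shock factor HSFA1a of tomato held 1982 peaks that were weakly enriched in the first replicate. They were nevertheless called again in the second. These weak shared peaks were defined as replicate 1 peaks on chromosomes 1 to 12 with a fold enrichment below 4 that shared at least 1 bp with any replicate 2 peak. They made up 22.2% of the 8917 weak replicate 1 peaks, the other 6935 being weak unshared peaks that no replicate 2 peak overlapped. Of all 24164 replicate 1 peaks on these chromosomes, 55.9% were overlapped, and 11521 of those had a fold of 4 or more. Membership was thus chosen by the replicate 1 fold and by the overlap. Fold, significance, pileup, background, width, summit distance and the replicate 2 values are therefore given as descriptions. Position and spacing did not enter the rule.

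Both libraries came from amplified DNA affinity purification sequencing (AmpDAP-seq), in which a tagged transcription factor made in a cell-free extract captures fragments of genomic DNA. The DNA was taken from leaves of tomato cultivar M82, at 4 weeks of age, grown at 24 °C with 16 h of light, with no heat treatment named in the labels. HSFA1a fused to the Halo tag was made in wheat germ extract and bound to beads, the recovered DNA went through 20 PCR cycles, and each of the 2 HSFA1a-Halo-tag replicates was read as 75 bp single reads. A single Halo-tag sample was also part of the experiment and was not analysed here. A site in this text is therefore a peak call and a putative binding site. The fragments came from extracted DNA and were amplified before capture, so they carried neither nucleosomes nor cytosine methylation. The assay thus reports affinity for naked DNA rather than occupancy in a leaf nucleus.

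Class A heat shock factors activate chaperone genes and other protective genes when plants are heated, and HSFA1a is known as a master regulator of this response in tomato. Heat shock factors bind DNA as trimers at heat shock elements, which are runs of short GAA units in alternating orientation. Elements with fewer or imperfect units are generally bound less tightly. Neither the sequence nor the genes at the sites were analysed here.

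The replicates differed in depth. From the genome-wide background that the peak caller used, replicate 1 had 48.0 tags per kb of effective genome and replicate 2 had 12.4, a ratio of 3.87. On the 12 chromosomes replicate 1 held 24164 peaks and replicate 2 held 14606. The part of this depth gap in which weak sites were called again was not tested.

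Each of the 1982 weak shared peaks had a replicate 2 peak of its own. None of these replicate 2 peaks overlapped another replicate 1 peak, which with 1982 peaks allows a share of up to 0.193% (Wilson 95% interval). Only 1 of the weak shared peaks was overlapped by more than 1 replicate 2 peak. The median shared stretch was 153 bp, with a range of 57 to 408 bp. In 1913 peaks (96.5%) it covered at least 50% of both peaks, so the minimum of 1 bp admitted few marginal matches.

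The summits, where the tags piled highest, lay close together in the pair of libraries. The median summit distance at weak shared peaks was 15 bp (95% interval of the median 14 to 17), against 9 bp at shared peaks of fold 4 or more. Summits fell within 25 bp of each other in 69.3% of the weak shared peaks and within 50 bp in 89.8%. The corresponding shares at fold 4 or more were 86.3% and 97.6%. Summit distance was measured only at peaks that overlap, which bounds it in advance, so these values are a description. Within that bound, summits lay less close together at the weak shared peaks than at the stronger shared ones.

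In replicate 1 the weak shared peaks had a median fold of 3.38, with quartiles of 2.94 and 3.73 and a lowest value of 1.61. The weak unshared peaks had a median of 3.05, and the shared peaks of fold 4 or more had one of 7.44. The median −log10 q was 11.4 in the weak shared peaks and 7.22 in the weak unshared ones, against 47.9 in the shared peaks of fold 4 or more and 19.4 over all replicate 1 peaks. A q of 1e-05 or lower was reached by 1870 weak shared peaks (94.3%), by 73.5% of the weak unshared peaks and by 100% of the shared peaks of fold 4 or more. Weak shared sites were above the weak unshared sites in both values and below the stronger shared sites in both. The rule itself set the gap in fold to the stronger sites, and q rests on the same tags as the fold. These values therefore describe the selection.

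The share of replicate 1 peaks overlapped by replicate 2 rose through the fold classes with no step at the threshold of 4. It was 9.64% in the class from 1.5 to 2 (35 of 363 peaks), 24.0% from 3 to 3.5 and 32.4% from 3.5 to 4. Just above the threshold, from 4 to 4.5, it was 39.0%, and from 8 upwards it was 97.3%. The threshold of 4 cut a continuous rise.

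Single shared peaks on either side of the threshold are given as examples, each chosen for its replicate 1 fold and its overlap with replicate 2. The peak at chr5:41713135-41713314 had a fold of 3.999 in replicate 1 and 5.35 in replicate 2, and that at chr8:44227781-44227952 had 3.999 and 6.28. The peak at chr1:90938071-90938375 had 3.998 and 4.20. Just above 4, chr11:45314004-45314202 had a fold of 4.0005 in replicate 1 and 4.58 in replicate 2. The peaks at chr1:15810591-15810837 and chr1:15898261-15898512 both had 4.001 in replicate 1, with 5.23 and 5.95 in replicate 2. The replicate 2 values of the peaks just inside the rule, from 4.20 to 6.28, overlapped those just outside it, from 4.58 to 5.95.

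**Figure D1:**
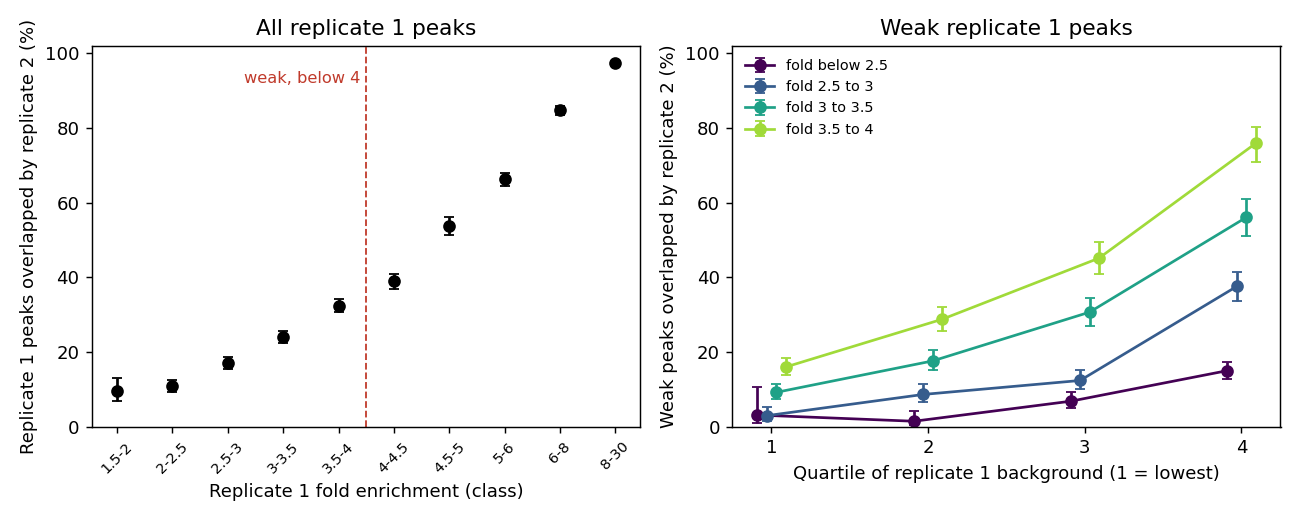
Share of replicate 1 peaks overlapped by a replicate 2 peak (percent, vertical axis) by class of replicate 1 fold enrichment for all 24164 peaks (left), and by quartile of background for the 8917 weak peaks in 4 classes of fold (right). Points are shares and bars are Wilson 95% intervals; the share rises from 9.64% to 97.3% over the fold classes, and within the class from 3.5 to 4 it runs from 16.0% in the lowest quartile of background to 75.9% in the highest.

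Fold enrichment is a quotient of the tags piled at the summit and the local background expected from a control, each with 1 added. Both parts were recovered from the deposited fold and p-value of every summit. The weak shared peaks had a median pileup of 54.0 tags, against 39.2 in the weak unshared peaks and 94.2 in the shared peaks of fold 4 or more. Their median background was 16.0 tags, against 12.5 and 11 tags. Weak shared sites thus combined larger pileups than the weak unshared sites with a higher background than either comparison set. Both parts enter the fold that the rule capped, so these differences describe the selection.

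The ratio of median backgrounds between weak shared and weak unshared peaks was 1.28 (95% interval 1.22 to 1.32), and it was above 1 on each of the 12 chromosomes. The ratio of median pileups was 1.38 (95% interval 1.33 to 1.43), also above 1 on all 12. The median excess of pileup over background was 38.6 tags in the weak shared peaks and 26.9 tags in the weak unshared peaks. Peaks of 1 library are not replicates, so these intervals cover counting error only. Fold and overlap set the membership, so the same direction on all 12 chromosomes is part of the description.

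Among the weak peaks, the overlapped share rose with background. It was 11.3% (251 of 2230) in the quartile with 7.16 to 10.03 background tags, then 17.6%, 23.3% and 36.8% (819 of 2227) in the quartile with 18 to 98 tags. The rise was present at nearly equal fold: between 3.5 and 4 the share was 16.0% (167 of 1045) in the lowest quartile and 75.9% (236 of 311) in the highest. At a given fold, a higher background also means more tags above it. By the excess itself the share ran from 3.40% below 20 tags to 84.5% (300 of 355) at 60 tags or more.

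**Figure D2:**
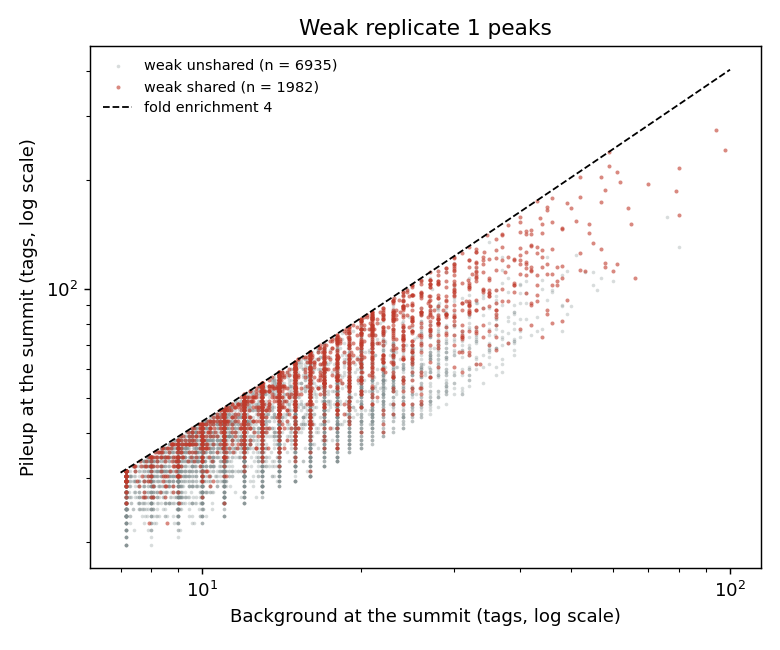
Pileup at the summit against background at the summit, both in tags on log scales, for the 1982 weak shared and 6935 weak unshared peaks of replicate 1; the dashed line marks a fold enrichment of 4. Weak shared peaks crowd towards the line and towards high backgrounds, with a median background of 16.0 tags against 12.5 tags, and the vertical stripes are backgrounds of whole control tags.

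The peak caller takes as background the highest of several rates, from the control at the summit itself, over 1 kb, over 10 kb and over the genome. In 68.8% of the weak shared peaks the background matched a whole number of control tags at the summit. This was so in 59.2% of the weak unshared peaks and in 39.5% of the shared peaks of fold 4 or more. The difference between the weak sets was 9.63 percentage points (95% interval 7.25 to 11.9). A genome-wide background was rare in the weak shared peaks, at 1.82%, against 4.96% and 13%. In most weak shared peaks, and in most weak unshared ones, the fold was thus computed against control tags at the summit. The background enters the fold that the rule capped, so these shares also describe the selection.

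Some sites with the highest backgrounds carried very large pileups. These peaks were chosen after their values were seen. The peak at chr4:2362094-2362339 had 242 tags over a background of 98.0 in replicate 1, a fold of 2.46, and 115 tags over 23.2 in replicate 2, a fold of 4.80. At chr10:1975084-1975345 the counts were 275 over 94.0 in replicate 1 and 146 over 22.4 in replicate 2, with folds of 2.90 and 6.29. Its pileup was the highest of all 24164 replicate 1 peaks, and its −log10 q was 47.9 in replicate 1 and 62.6 in replicate 2. At chr1:79845417-79845751 the folds were only 1.99 and 2.32, with 160 tags over 80.0 in replicate 1. Of the 20 weak peaks with the highest backgrounds, from 58.0 to 98.0 tags, 17 were shared. The share was 22.2% over all 8917 weak peaks and 36.8% in the highest quartile of background. Background enters the fold that the rule capped, so this count also describes the selection.

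Replicate 2 gave the weak shared sites higher folds than replicate 1. The median replicate 2 fold was 4.53, with quartiles of 3.85 and 5.23 and a range of 1.93 to 9.36, below the median of 6.61 over all replicate 2 peaks. The median log2 ratio of the replicate 2 fold to the replicate 1 fold was 0.47 (95% interval 0.45 to 0.48). At shared peaks of fold 4 or more it was 0.03. The replicate 2 fold was the higher one at 1863 weak shared peaks (94.0%) and at 53.5% of the stronger shared peaks. A replicate 2 peak had to be called for a site to enter the set, and the rule capped only the replicate 1 fold, so this ratio describes the selection and is no estimate of a difference between the libraries.

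Of the weak shared peaks, 568 (28.7%) had a fold below 4 in replicate 2 as well, and 6 (0.303%) reached 8. Among all 14606 replicate 2 peaks, 1139 had a fold below 4, so low replicate 2 folds were more frequent at weak shared peaks. The other weak shared peaks were weak by the replicate 1 value alone, the only one that the rule capped. At the weak shared peaks replicate 2 had a median pileup of 20.0 tags over a background of 3.68 tags, while all replicate 2 peaks had 24.0 over 2.63. The background of both lists came from controls of equal depth, as a single control would give. The replicate 2 background therefore cannot be taken as independent of the replicate 1 value. The replicate 2 q was 1e-05 or lower in 75.2% of them.

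Across the 1982 weak shared peaks, backgrounds in the replicates had a Spearman correlation of 0.956, pileups one of 0.837, folds one of 0.445 and widths one of 0.341. These are descriptions across sites that share libraries and windows. The background comes from the control, which the sources used here do not name. The control depth that each list implies was 47.12 tags per kb in both replicates, so the replicates were set against controls of equal depth, as a single control would be. The correlation of backgrounds therefore cannot be taken as a second measurement of them. The order of sites by fold was less alike, within the narrow range that the rule left.

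**Figure D3:**
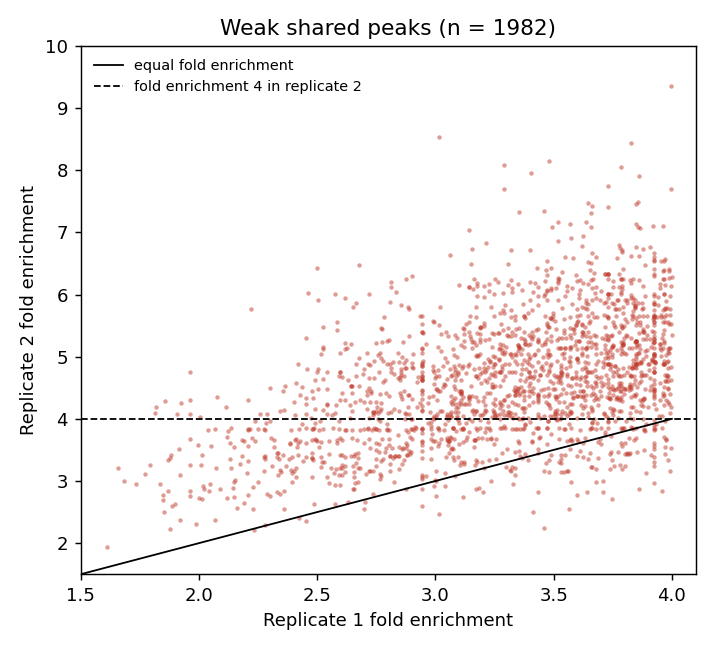
Replicate 2 fold enrichment against replicate 1 fold enrichment at each of the 1982 weak shared peaks; the solid line marks equal folds and the dashed line a replicate 2 fold of 4. Of the points, 94.0% lie above the line of equal folds and 28.7% below a replicate 2 fold of 4.

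The largest replicate 2 folds belonged to sites of varied replicate 1 fold. The peak at chr2:20021249-20021453 had a fold of 3.996 in replicate 1 and 9.36 in replicate 2. The peak at chr4:62066997-62067149 had 3.01 and 8.54, that at chr4:5119648-5119857 had 3.83 and 8.45, and that at chr1:56389392-56389563 had 3.48 and 8.15. The fifth, chr3:53825662-53825858, had 3.29 and 8.09, with 111 tags over a background of 33.0 in replicate 1 and another replicate 1 peak 392 bp away. All 5 would have counted as strong sites by a fold of 8 in the second library.

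At the other extreme, the lowest replicate 1 folds came with high backgrounds. The peak at chr3:20691746-20692034 had folds of 1.61 and 1.93, with 107 tags over 66.0 in replicate 1 and 37.0 tags over 18.7 in replicate 2. The folds were 1.66 and 3.21 at chr4:21835041-21835194, where the replicate 1 background was 44.0 tags. They were 1.68 and 2.99 at chr6:10794938-10795163, where it was 48.0 tags. These sites stayed below 4 in both replicates.

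Single weak peaks of high significance in replicate 1 had no overlap, although most weak unshared peaks were less significant. The 95th percentile of −log10 q was 13.9 in the weak unshared peaks and 24.7 in the weak shared ones. The weak unshared peaks of highest −log10 q were chr4:63060919-63061189, with a fold of 3.76 and a −log10 q of 34.1, chr1:88376095-88376286 with 3.83 and 30.4, and chr9:7203191-7203391 with 3.85 and 27.7. The first had 134 tags over a background of 35. Each of the 3, chosen for this value, stood far above the median −log10 q of 11.4 of the weak shared peaks.

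Weak shared peaks were wider than weak unshared ones. Their median width was 197 bp (95% interval 195 to 199; quartiles 174 and 233), against 176 bp (174 to 176), and it was 250 bp in the shared peaks of fold 4 or more. The difference of 21.0 bp (95% interval 19.0 to 23.8) held in direction on 12 of 12 chromosomes, with a mean of 21.3 bp ± 3.69 (SD over 12 chromosomes). The shortest width that was called, 152 bp, was found in 2.12% of the weak shared peaks and in 8.95% of the weak unshared peaks. A wider peak offers more bases to overlap, so width is not independent of the rule.

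The overlapped share ran from 9.33% among weak peaks of 152 to 162 bp to 35.6% among those of 209 to 711 bp. Width also moved with background. Within quartiles of background, from the lowest to the highest, the weak shared and weak unshared medians were 176 and 169 bp, 184 and 173 bp, 195 and 179 bp, and 214 and 185 bp. The weak shared peaks were the wider set in each quartile.

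The widest weak shared peaks were not equally wide in both libraries. The peak at chr7:16542646-16543191 spanned 546 bp in replicate 1 and 166 bp in replicate 2, with folds of 2.82 and 4.72. The peak at chr11:35401774-35402319 spanned 546 and 355 bp, with folds of 3.34 and 5.44. The third, chr4:27846429-27846952, spanned 524 and 319 bp, with folds of 3.62 and 5.05. In each of these the replicate 2 peak was narrower and covered only a portion of the replicate 1 peak.

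Spacing barely separated the weak sets. The nearest other replicate 1 peak lay at a median of 9628 bp (95% interval 8852 to 10393) from a weak shared summit and 9533 bp (9232 to 9920) from a weak unshared one. The ratio of these medians was 1.01 (95% interval 0.920 to 1.10), above 1 on 6 chromosomes and below 1 on 6. The nearest peak of fold 8 or more lay at a median of 55718 bp (51064 to 59473) and 51756 bp (49595 to 53753). That ratio was 1.08 (95% interval 0.979 to 1.16), above 1 on 8 chromosomes and below 1 on 4. Both intervals included equal medians, and their upper ends of 1.10 and 1.16 show the size of difference that these counts could not resolve.

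Within 1000 bp, weak shared peaks had slightly fewer neighbours than weak unshared peaks. A peak within 1000 bp was found for 107 weak shared peaks (5.40%) and 478 weak unshared peaks (6.89%), a difference of −1.49 percentage points (95% interval −2.60 to −0.268). A peak of fold 8 or more lay within 1000 bp of 14 weak shared peaks (0.706%) and 88 weak unshared peaks (1.27%), a difference of −0.563 percentage points (−0.970 to −0.0306). A peak within 1000 bp was found for 5.97% of all replicate 1 peaks and 5.49% of the shared peaks of fold 4 or more, so for any neighbour the weak shared share was close to that of the other shared peaks. For strong neighbours those shares were 1.13% and 1.06%. Within 10 kb the shares were 51.2% and 51.5% for any peak and 14.0% and 13.7% for strong peaks. Few weak sites of either kind lay within 1000 bp of a strong peak.

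**Figure D4:**
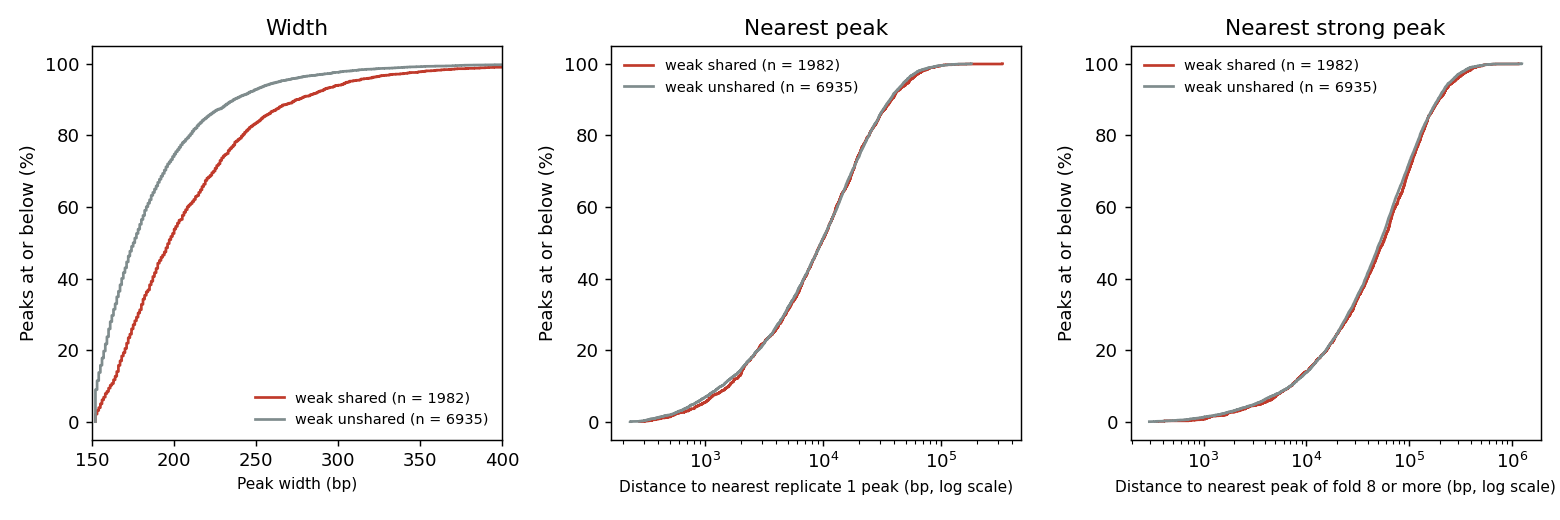
Cumulative share of peaks (percent) at or below a given width (bp, left), distance to the nearest replicate 1 peak (bp, log scale, middle) and distance to the nearest peak of fold 8 or more (bp, log scale, right), for the 1982 weak shared and 6935 weak unshared peaks. The width curves are apart, with medians of 197 and 176 bp, while the distance curves nearly coincide.

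The weak shared peaks closest to a strong peak were well resolved from it. At chr1:1973028-1973221, with folds of 3.84 and 5.78, the summit lay 352 bp from that of a peak of fold 11.2. At chr1:50564703-50564863, with folds of 2.62 and 3.24, it lay 359 bp from one of fold 12.4. At chr10:57091337-57091536, with folds of 3.77 and 4.13, it lay 412 bp from one of fold 10.9. That last strong neighbour was itself not overlapped by any replicate 2 peak, although the weak site beside it was. The most isolated weak shared peak, chr11:19177146-19177349, had folds of 3.63 and 6.94 and lay 330418 bp from any other replicate 1 peak.

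The neighbours of weak shared peaks were shared about as often as those of replicate 1 peaks in general. The nearest peak was itself overlapped by replicate 2 for 57.4% of the weak shared peaks and 54.2% of the weak unshared peaks, a difference of 3.24 percentage points (95% interval 0.760 to 5.70). The share was 56.3% for all replicate 1 peaks and 57.6% for shared peaks of fold 4 or more, so the weak unshared peaks were the lower set. The nearest peak was another weak shared peak in 8.38% and 8.31% of the weak sets. These shares were close to the 8.21% found for all replicate 1 peaks.

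Along the chromosomes, the weak sets were not clearly apart. Chromosome arms of tomato carry most genes, and the centres are rich in repeats. The outer 20% at each end, measured on the extent covered by peaks, held 720 weak shared peaks (36.3%, 95% interval 34.2 to 38.5) and 2350 weak unshared peaks (33.9%, 32.8 to 35.0). The difference was 2.44 percentage points (95% interval 0.0693 to 4.85), but it was positive on 7 chromosomes and negative on 5, with a mean of 2.07 ± 4.91 (SD over 12 chromosomes). The spread between chromosomes was larger than the difference, and the interval included 0 under 10 of 15 alternative settings. All replicate 1 peaks had 36.6% in this zone, and the shared peaks of fold 4 or more had 38.2%.

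Position moved with background. From the lowest to the highest quartile of background, the outer zone held 27.9% and 27.8%, 35.7% and 32.5%, 36.0% and 37.1%, and 39.4% and 40.3% of the weak shared and weak unshared peaks. In the upper quartiles the weak unshared peaks had the larger outer share. Averaged over the quartiles, the difference was 0.310 percentage points (95% interval −2.13 to 2.89).

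**Figure D5:**
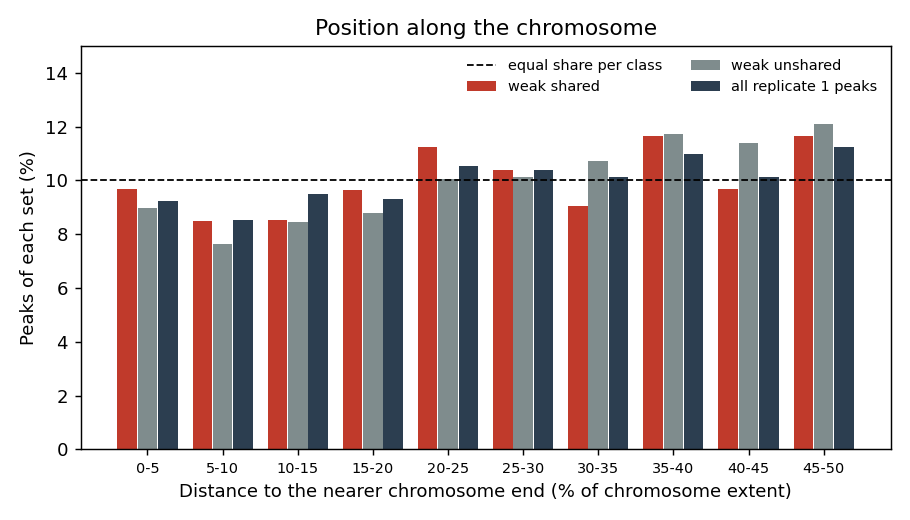
Share of each set of peaks (percent, vertical axis) by distance from the summit to the nearer chromosome end (percent of chromosome extent, in classes of 5) for weak shared, weak unshared and all replicate 1 peaks; the dashed line is an equal share per class. The sets follow each other closely, with 36.3%, 33.9% and 36.6% of them in the outer 20%.

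The share of weak peaks that were shared ranged from 20.8% on chromosome 10 to 24.6% on chromosome 2, with a mean of 22.3% ± 1.27 (SD over 12 chromosomes).

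The rule can be turned round. Replicate 2 had 1139 weak peaks, of which 697 (61.2%) overlapped a replicate 1 peak, and at 569 of these the replicate 1 fold was also below 4. Their median background was 4.999 tags, against 3.95 in the weak replicate 2 peaks that replicate 1 did not overlap, and their median width was 158 bp, against 150 bp. These sites largely repeat the main set, since 568 weak shared peaks were weak in both replicates, and background and width bear on the rule in either direction, so the values are a description.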

How the data were processed

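The deposited files were 1 narrowPeak list for each HSFA1a-Halo-tag replicate. The submitters' processing notes name Trimmomatic 0.38, Bowtie2 2.3.5, SAMtools 1.9 and MACS2 2.2.7.1, and reads were aligned by the authors to an M82 assembly. Peaks were called per replicate (highest q 0.0474 and 0.0471). The control of the AmpDAP-seq calls is not named in the sources used here. The authors' fold enrichment is a linear ratio of pileup to background, each with 1 added, and −log10 p and −log10 q values stand beside it. The deposited score column was not used in any result. The files hold no counts or library totals, so depth comes from the genome-wide background.

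Pileup and background were solved from the deposited fold and −log10 p of each summit. Replicate 2 solved with whole pileups at 100% of summits. Replicate 1 did so at 0.248% and, with a factor of 0.981 on the pileup that was found after the data were seen, at 100%. Replicate 1 backgrounds were then assigned to a window: the genome level of 7.16 tags, whole control tags at the summit, or steps of 0.152 (1 kb) or 0.0152 tags (10 kb), also after the data were seen. The steps take the shortest peak, 152 bp, as fragment length.

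Distances are between summits, and coordinates are 1-based on the M82 assembly. Medians have order-statistic 95% intervals, shares have Wilson intervals, and differences combine these by the square-and-add method. All cover counting error only. Peaks are not replicates and each list is 1 library, so no p-value was computed. The calculations were tested on simulated data. The members and lists were chosen with earlier results of these data known. Peaks were named by rule. Among weak shared peaks these were the 5 of highest replicate 2 fold, the 3 of lowest replicate 1 fold and the 3 widest. They were also the 3 nearest to a strong peak and the 1 farthest from any peak. The others named by rule were the 3 shared peaks nearest to fold 4 on each side and the 3 weak unshared peaks of highest −log10 q. Alternatives covered the thresholds on fold, q, overlap, position and strong peaks. Python, numpy, scipy and pandas were used.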

Additional observations from a re-analysis of the deposited data

Results flagged for a closer look

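Outside the numbered chromosomes, replicate 1 had 5 weak peaks on the mitochondrial sequence, and all 5 were shared. They were flagged because they lay in sequence that no comparison used and exceeded the limit of 3 that a count of 0 allows. That limit is no test, and how many overlaps the density of replicate 2 peaks there would give was not tested. Replicate 2 had 201 weak peaks on the mitochondrial sequence, of which 1 overlapped a replicate 1 peak, and 108 on the chloroplast sequence, of which 0 did. On unplaced contigs replicate 1 had 4 weak peaks, 2 of them shared.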

How the results depend on the processing

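Of 79 alternative values, 63 stayed inside the interval of the reported value (or within 1.5 times a count), and 16 moved outside it. No width difference or fold ratio, and no outer share difference, changed sign. The nearest-peak ratio was below 1 in 7 of 15 alternatives, from 0.915 to 1.07, and its interval included 1 in all 15, so it has no direction. The ratio for strong peaks stayed above 1 in 16 of 16, with an interval that included 1 in each. The 1982 weak shared peaks became 1147 below a fold of 3.5, 3787 below 5, and 697 with the rule on replicate 2. The width difference of 21.0 bp became 29.0 bp below a fold of 5, 11 bp with weak peaks taken by lowest −log10 q, 8 bp with the rule on replicate 2, and 15.8 bp within quartiles of background. It was 14.0 bp among peaks whose background was not set at the summit, an alternative chosen after seeing the data. The outer share difference of 2.44 points became 9.67 (4.00 to 15.2) with the rule on replicate 2. It was 3.91 (1.43 to 6.37) for the outer 30%. At a reciprocal overlap of 50% it was 3.15 (0.745 to 5.60), and with summits within 100 bp 2.99 (0.599 to 5.43). Its interval included 0 in 10 of 15 alternatives. Among these were 0.720 (−2.03 to 3.53) at a q of 1e-05 or lower and 0.923 with weak peaks by lowest −log10 q. Others were 1.55 below a fold of 3.5, 1.63 below 5 and 2.14 at a q of 0.01 or lower. The nearest-peak ratio of 1.01 became 0.915 between folds of 3.5 and 4. The log2 fold ratio of 0.47 became 0.54 below 3.5, 0.37 below 5, 0.53 at a q of 1e-05 or lower, 0.48 with weak peaks by lowest −log10 q, 0.49 with weakness set without the added 1, and 0.70 with the ratio itself taken without it, also chosen after seeing the data. The cause of these moves was not tested. Leaving out either replicate gives no value, since the rule needs both lists. No paired analysis was possible because only 1 group had peak lists to compare. Replicate 2 had 12.4 tags per kb against 48.0 in replicate 1, and the effect of this gap on which weak sites were shared was not tested.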
